A study of Mus musculus with 87 samples.

Results

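The 10 genes described here encode the hepatocyte growth factor (HGF) and epidermal growth factor (EGF) receptor systems of the liver. They are the HGF ligand Hgf, its activators Hgfac and Plau, its receptor Met, the receptors Egfr and Erbb3, the EGF receptor ligands Areg, Hbegf and Tgfa, and the receptor inhibitor Errfi1. They were chosen by name from the 37991 genes of the deposited table, and each name matched a single row. Of the 10 genes, 9 passed the detection limit along with 15396 genes in all, and Areg did not.

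The study followed the livers of male C57BL/6 mice, 12 to 14 weeks old, after partial hepatectomy (PH). All mice, controls included, had been adapted to light and dark periods with food at night, and surgery took place at Zeitgeber Time (ZT) 2, where ZT0 is the start of the light period. Livers after PH are named X with the hours since surgery, livers after a sham laparotomy without resection are named S, and livers of unoperated mice are named C. Poly(A)-selected RNA of individual livers, not pooled ones, was sequenced, and no allele or transgene was involved. The PH groups analysed here were X1 (n = 6), X4 (n = 3), X10 (n = 6), X20 (n = 6), X28 (n = 3), X36 (n = 6), X44 (n = 3), X48 (n = 5), X72 (n = 3), and X1W (n = 3) and X4W (n = 2) for 1 and 4 weeks. The sham groups were S1 (n = 6), S4 (n = 5), S10 (n = 3), S20 (n = 3) and S48 (n = 3). The unoperated groups were C0 at ZT2 (n = 9), C4 at ZT6 (n = 3) and C4W, the partner of X4W (n = 2).

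HGF is secreted as an inactive precursor, largely by stellate and endothelial cells of the liver. Serine proteases such as the HGF activator (Hgfac), which hepatocytes secrete, and urokinase (Plau) cut the precursor, and the active form binds Met on hepatocytes. The EGF receptor binds several ligands that are made as membrane-bound precursors and released by sheddases, among them TGF-alpha, amphiregulin and HB-EGF, while Erbb3 binds neuregulins and signals through its partner receptors. Both systems feed into the Ras-MAPK and PI3K-Akt pathways and are known drivers of hepatocyte proliferation after loss of liver mass. Errfi1 (also called MIG6) is an inhibitor of the EGF receptor that EGF signalling itself induces.

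The upstream sequence of 4 of these genes is shown here, for Hgf, Hgfac and Tgfa because their transcripts moved with PH at the same times, and for Areg because it was the gene with the fewest reads. Each stretch is the 150 bases before a RefSeq start site, taken from RefSeq promoter windows of GRCm38.p6 and placed by an exact single match in mm9, the assembly of the deposited values. The table held windows for 7 of the 10 genes and none for Plau, Erbb3 and Hbegf. Capitals mark motifs found on either strand. The HNF1 motif was searched as GTTAAT. The GC box was searched as GGGCGG, which reads CCGCCC when it lies on the other strand. The cAMP response element was searched as TGACGTCA. The TATA box was searched as TATAAA.
Hgf, chr5:16059569-16059718, plus strand: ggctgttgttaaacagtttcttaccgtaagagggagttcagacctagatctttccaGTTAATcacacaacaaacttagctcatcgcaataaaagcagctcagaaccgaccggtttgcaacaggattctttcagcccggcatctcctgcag
Hgfac, chr5:35384008-35384157, plus strand: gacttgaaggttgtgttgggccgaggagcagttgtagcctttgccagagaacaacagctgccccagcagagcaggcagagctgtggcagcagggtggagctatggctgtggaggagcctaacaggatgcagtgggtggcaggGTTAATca
Tgfa, chr6:86145066-86145215, plus strand: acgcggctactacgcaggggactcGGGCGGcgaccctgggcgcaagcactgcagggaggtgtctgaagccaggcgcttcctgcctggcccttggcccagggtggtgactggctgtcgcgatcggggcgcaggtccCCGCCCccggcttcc
Areg, chr5:91568475-91568624, plus strand: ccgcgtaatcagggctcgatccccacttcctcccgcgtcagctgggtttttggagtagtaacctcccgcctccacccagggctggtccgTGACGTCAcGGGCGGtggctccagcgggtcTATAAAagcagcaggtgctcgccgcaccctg
The Hgf and Hgfac stretches each held 1 GTTAAT, a motif found in 3.7% of the 32851 RefSeq stretches of the same length. The Tgfa stretch held 2 GC boxes, a motif found in 28.6% of all stretches, and it was 72.7% G and C against a median of 54.0%. The Areg stretch held TGACGTCA (1.4% of all stretches), a GC box and TATAAA (7.6% of all stretches). The same pair of TGACGTCA and TATAAA was present in 1 of the 2 Errfi1 stretches. The other Hgf stretch of the 2 in the table held none of these motifs. The printed one lies inside the annotated gene, 351 bases from the start of its longest model to the RefSeq start. These matches describe the letters of the stretches and are not evidence of binding.

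Gene positions are those of mm9, from the first to the last annotated base. Hgf (ENSMUSG00000028864) lies on the plus strand of chromosome 5 from 16059368 to 16125257, and Hgfac (ENSMUSG00000029102) on the same strand from 35384202 to 35391085. Areg (ENSMUSG00000029378) is the third member on chromosome 5, from 91568641 to 91577458 on the plus strand. Met (ENSMUSG00000009376) lies on chromosome 6 from 17413800 to 17523980 and Tgfa (ENSMUSG00000029999) on chromosome 6 from 86145420 to 86225151, both on the plus strand. Egfr (ENSMUSG00000020122) lies on chromosome 11 from 16652206 to 16818161 and Errfi1 (ENSMUSG00000028967) on chromosome 4 from 150228028 to 150243001, both on the plus strand. Plau (ENSMUSG00000021822) lies on chromosome 14 from 21655884 to 21662610 on the plus strand. Erbb3 (ENSMUSG00000018166) lies on chromosome 10 from 128004579 to 128026708 and Hbegf (ENSMUSG00000024486) on chromosome 18 from 36664583 to 36675459, both on the minus strand. The deposited values cover whole genes, so they do not separate isoforms.

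Levels are given for single livers as RPKM, the reads of a gene divided by its length in kilobases and by the mapped reads of the library in M (mega). Differences are differences of group means of log2(RPKM + 0.25) with their standard error (SE), and understate the change of genes near or below 0.25 RPKM. Adjusted p values are from limma with Benjamini-Hochberg adjustment over the 15396 genes tested, and a call needed both an adjusted p below 0.05 and a log2 difference of more than 0.5, up or down. Estimated depth was between 12.16 and 48.83 M reads per library with a median of 26.73 M reads. X28 replicate 2 stood apart, with 22269 genes above 0 against at most 18598 in any other library, and C0 replicate 8 had the highest summed Kupffer cell and macrophage markers of C0 (148 RPKM against 9.44 in the lowest C0 library). All 7 hepatocyte markers were present, with a summed level of 4.89e+04 to 5.88e+04 RPKM in C0. The sham groups and their PH partners shared the ZT of collection. Against unoperated livers, S4, X4, S48, X48 and X72 were compared with controls of the same ZT. At 1 h the ZT differed by 1 h, and from X10 to X44 and in S10 and S20 it differed by more. In these comparisons the effects of surgery and of time of day cannot be told apart. X28 shared ZT6 with C4, but it was compared with C0 only. The comparisons with C0 share its 9 libraries.

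The study collected the livers in 3 separate periods, and the groups are spread unevenly over them. C0 came from each of the periods, with 3 livers per period. C4 came from the third alone, which held no operated livers, so that surgery and period cannot be told apart in the comparisons with C4 by themselves. S48, X28, X44, X48, X72 and X1W came from the first, and S10, S20, C4W and X4W from the second. The other groups came from both of these, but of X4 only replicates 4 to 6 were analysed. S48 and X48 thus share 1 period, while S10 and S20 were compared with PH groups that span more than 1. S4 spans more than 1 too, and under the number order assumed below the X4 livers come from the second alone. The sources used here do not tie replicate numbers to periods. A fit with period as a term was made on the assumption that the numbers follow the periods in order (1 to 3, 4 to 6 and 7 to 9), the period fit. In it the calls of Hgf between PH and sham livers were kept at 10, 20 and 48 h. Those of Hgfac and Tgfa were kept at 20 and 48 h. Against unoperated livers, 21 of the 72 member calls were lost and 2 were gained. In this fit the term of the third period is estimated from the C0 livers, since that period held only C0 and C4. The differences from C4 thus rest on the C0 livers and their assumed order too.

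Hgf was the member that separated PH from sham livers most steadily. It was higher after PH than after sham surgery at 10, 20 and 48 h, by 1.88-fold, 2.24-fold and 2.16-fold on the log2(RPKM + 0.25) scale, with no overlap between the libraries of the PH and sham groups. At 1 and 4 h the difference did not pass the test. The sham livers stayed near the unoperated level throughout.

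In unoperated C0 livers, Hgf lay between 0.673 and 1.69 RPKM with a median of 0.977. After sham surgery it was 0.876, 0.875 and 1.23 RPKM at 10 h, 1.07, 1.1 and 1.21 RPKM at 20 h, and 1.01, 1.11 and 0.945 RPKM at 48 h. These 9 sham livers all lay within the range of C0. After PH, the 6 livers at 10 h lay between 1.73 and 2.66 RPKM and the 6 livers at 20 h between 2.09 and 3.66 RPKM. At 48 h the 5 PH livers had 2.63, 2.52, 3.1, 1.3 and 3.54 RPKM. The lowest of them, replicate 4, lay within the C0 range and still above the 3 sham livers.

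The PH minus sham difference of Hgf was 0.91 (SE 0.25, adjusted p = 0.00844) at 10 h, 1.16 (SE 0.25, adjusted p = 0.000881) at 20 h and 1.11 (SE 0.25, adjusted p = 0.000264) at 48 h. At 1 h it was 0.19 (95% confidence interval −0.21 to 0.59) and at 4 h 0.43 (−0.08 to 0.94). A moderated F test of whether the PH minus sham difference varied over the 5 times gave an adjusted p of 0.0276 for Hgf, where 41.4% of all genes tested passed, and Hgf did not pass it in the period fit. At 10 h the difference gave an adjusted p of 0.0527 without S10 replicate 1, 0.0619 without S10 replicate 2, and 0.123 with X10 replicates 4 to 6 alone (log2 difference 0.72), against 0.00736 with X10 replicates 1 to 3 alone (1.1). At 20 h each X20 triplicate gave a call (1.33 and 1.00). If the numbers follow the periods, replicates 4 to 6 of X10 and X20 are those that share a period with S10 and S20. At 48 h the difference was 0.68 (adjusted p = 0.023) when all libraries were scaled to the same median.

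**Figure D1:**
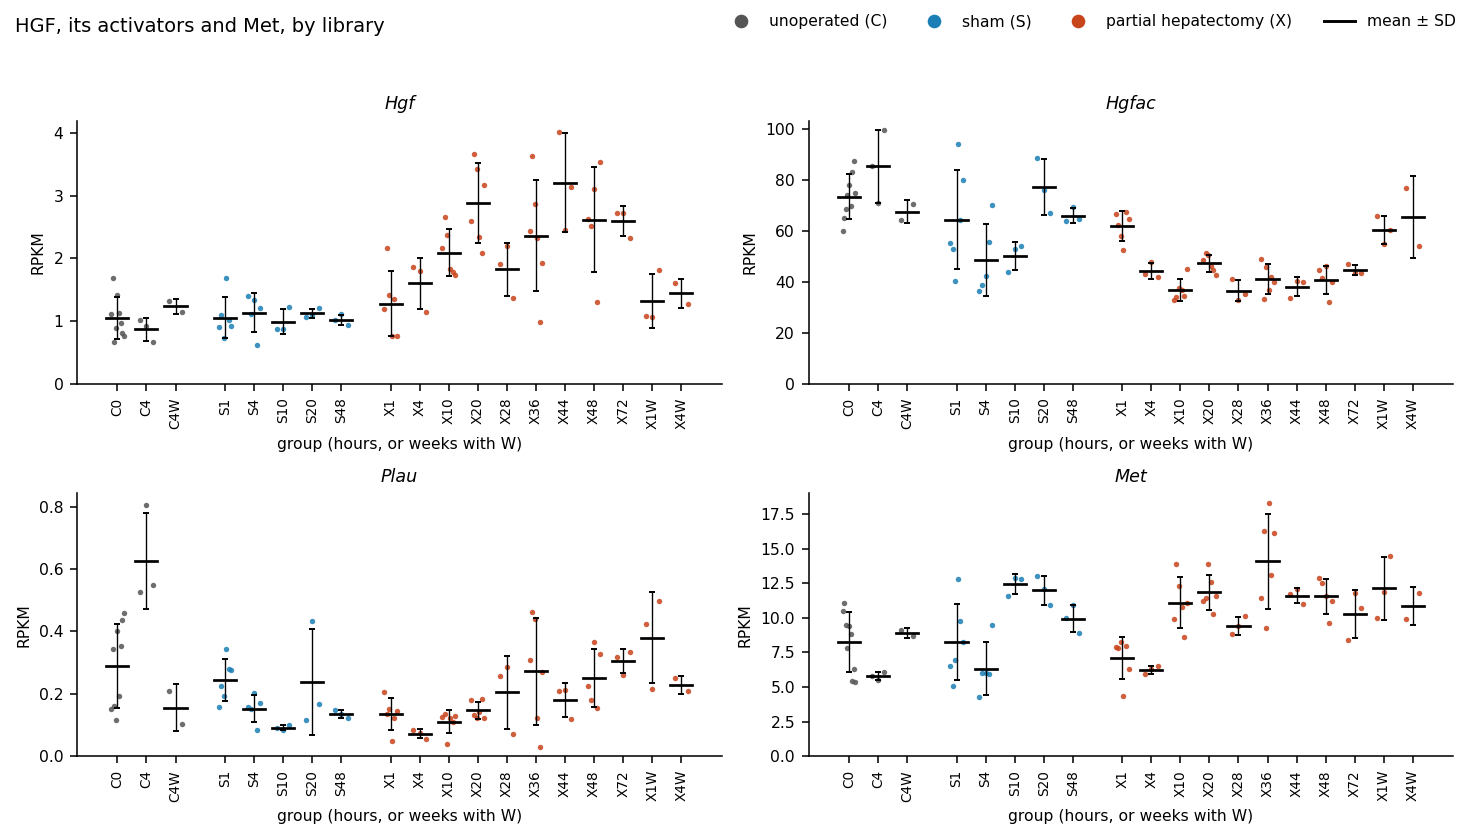
RPKM of Hgf, Hgfac, Plau and Met in single livers (points) by group, with the group mean and SD, on a linear axis in each panel. Hgf after PH sits above its sham partners at 10, 20 and 48 h, where the PH livers range from 1.3 to 3.66 RPKM and the sham livers from 0.875 to 1.23 RPKM, and Hgfac is lower after PH than after sham surgery at 20 and 48 h.

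Against unoperated livers, Hgf was called higher in 8 of the 11 PH groups, from X4 to X72. At 4 h, X4 had 1.87, 1.8 and 1.14 RPKM against 1.02, 0.928 and 0.666 RPKM in C4, a difference of 0.71 (SE 0.28, adjusted p = 0.0274) that was lost without C4 replicate 3, X4 replicate 4 or X4 replicate 5 and in the period fit (0.55, adjusted p = 0.209). The largest difference from C0 was in X44, with 4.02, 2.45 and 3.14 RPKM and a log2 difference of 1.42 (SE 0.23, adjusted p = 3.4e-07). X28 was lower than its neighbours in time at 1.91, 2.2 and 1.37 RPKM (0.69, SE 0.23, adjusted p = 0.0126), and its call was lost without replicate 1 or 2 and in the period fit (0.44). At 1 week, livers had 1.08, 1.06 and 1.82 RPKM, and the difference of 0.28 (adjusted p = 0.381) did not pass the test. In order of the group means, the 11 PH groups stood above all sham groups and above C0 and C4, from 3.2 ± 0.788 RPKM (SD, n = 3) in X44 down to 1.27 ± 0.518 RPKM (n = 6) in X1. Neighbours in that order differed by less than their SD.

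Because RNA came from whole liver, more cells of a type and more RNA per cell cannot be told apart. The summed level of 8 stellate cell markers was 48.3 to 82.9 RPKM in C0, 27.3 to 39.8 RPKM in S10 and 29.9 to 41.3 RPKM in X10. At 20 h it was 32.7 to 46.2 RPKM after sham surgery and 36.9 to 47.4 RPKM after PH, and at 48 h 39.6 to 40 RPKM and 35.5 to 64.6 RPKM. The ranges of PH and sham livers overlapped at these 3 times. Those of S10, X10, S20, X20 and S48 lay below C0, and that of X48 overlapped C0. The 6 endothelial markers summed to 13.6 to 16.7 RPKM in S10 and 10.6 to 17.4 RPKM in X10, 16.4 to 19.9 RPKM in S20 and 14.2 to 20.1 RPKM in X20, and 22.9 to 29.6 RPKM in S48 and 17.7 to 23.1 RPKM in X48. No marker of either list was at 0 throughout a group among these. The part of cell composition in the Hgf differences was not tested.

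Hgfac, which encodes the main circulating HGF activator, moved in the opposite direction to its substrate. It was 1.62-fold lower after PH than after sham surgery at 20 h and at 48 h, with no overlap between groups. Unlike Hgf, it also fell after sham surgery alone, at 4 and 10 h. In C0 it ranged from 60.1 to 87.5 RPKM.

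After sham surgery, Hgfac was 36.6, 39.0, 42.3, 55.8 and 70.3 RPKM at 4 h against 85.7, 70.9 and 99.8 RPKM in C4, and 43.9, 53.1 and 54.0 RPKM at 10 h. The sham livers were back within or near the C0 range at 20 h, with 88.8, 76.2 and 67.1 RPKM, and at 48 h, with 64.0, 69.3 and 64.9 RPKM. The PH livers stayed low, between 42.7 and 51.5 RPKM at 20 h and between 32.1 and 46.5 RPKM at 48 h. From X10 to X72 every PH liver lay below every C0 liver. The summed level of the 7 hepatocyte markers was 3.51e+04 to 3.93e+04 RPKM in S10 and 3.15e+04 to 3.64e+04 RPKM in X10. It was 3.72e+04 to 4.04e+04 RPKM in S20 and 2.71e+04 to 3.59e+04 RPKM in X20, and 4.09e+04 to 5.01e+04 RPKM in S48 and 3.46e+04 to 4.03e+04 RPKM in X48, so that at 20 and 48 h the hepatocyte markers too were lower after PH without overlap. Their part in the Hgfac differences was not tested. In X72 their sum was 4.92e+04 to 5.97e+04 RPKM, and there Hgfac was still lower than in C0 (−0.71).

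The sham minus unoperated difference of Hgfac was −0.84 (SE 0.16, adjusted p = 9.86e-06) at 4 h and −0.54 (SE 0.15, adjusted p = 0.00156) at 10 h. The PH minus sham difference was −0.01 at 1 h, −0.10 at 4 h, −0.45 (SE 0.16, adjusted p = 0.0459, short of the fold limit) at 10 h, −0.70 (SE 0.16, adjusted p = 0.00149) at 20 h and −0.70 (SE 0.16, adjusted p = 0.000277) at 48 h. It varied over the 5 times in the F test (adjusted p = 0.00585). At 10 h Hgfac became a call (−0.54) without S10 replicate 1. Scaled to the same median, the 48-h difference was −1.19, since that scaling moved the median of all genes tested from 0.27 to −0.1 in this comparison. Against unoperated livers, Hgfac fell in the 8 PH groups from X4 to X72, by between 0.63 on the log2 scale in X20 and 1.00 in X28, and at 1 week the difference was −0.28 (adjusted p = 0.14).

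Plau, which encodes urokinase and can also cut the HGF precursor, was near the detection limit. In C0 it ranged from 0.115 to 0.458 RPKM, and in C4 it was 0.527, 0.804 and 0.55 RPKM. The C4 livers lay above all C0 livers (0.73, SE 0.19, adjusted p = 0.00519, where 7.89% of genes were called between C4 and C0), which made Plau the member called between the unoperated groups. Against C4, Plau was lower in S4, at 0.0834 to 0.203 RPKM (−1.12, SE 0.20, adjusted p = 4.09e-06), and in X4, at 0.0846, 0.0752 and 0.0566 RPKM (−1.43, SE 0.23, adjusted p = 2.41e-07). With a pseudocount of 1 in place of 0.25, the calls at S4, at S10, at X10 and between C4 and C0 were lost, and the period fit also lost these 4 (S4 −0.62, adjusted p = 0.06). PH and sham livers did not differ in the test, and the smallest adjusted p was 0.152, at 48 h. Plau was also called lower in S10 (−0.62) and X10 (−0.55) against C0.

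Met, the HGF receptor, showed no PH minus sham difference that passed the test. The 5 differences lay between −0.18 and 0.21, and the intervals together reached from −0.58 to 0.62. S10 had 11.6, 12.9 and 12.8 RPKM and X10 had 8.59 to 13.9 RPKM, so the sham livers lay inside the range of the PH livers. In C0, replicates 7 to 9 had 5.45, 6.32 and 5.34 RPKM and the other 6 livers 7.81 to 11.1 RPKM. Against C0, Met was higher in S10 (0.62, SE 0.19, adjusted p = 0.0046) and S20 (0.56, adjusted p = 0.0198), and after PH at X20, X36, X44, X48 and X1W. The largest of these was X36, with 9.28 to 18.3 RPKM and a difference of 0.76 (SE 0.15, adjusted p = 9.32e-06). Under scaling to the same median none of these 7 calls held, and X36 was then 0.39. In the period fit those in S10, S20, X20, X44, X48 and X1W were lost. At 1 and 4 h no comparison of Met passed the test. The period fit called it lower in S4 than in C4 (−0.62, adjusted p = 0.0453), where the difference was 0.08 without the period term.

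**Figure D2:**
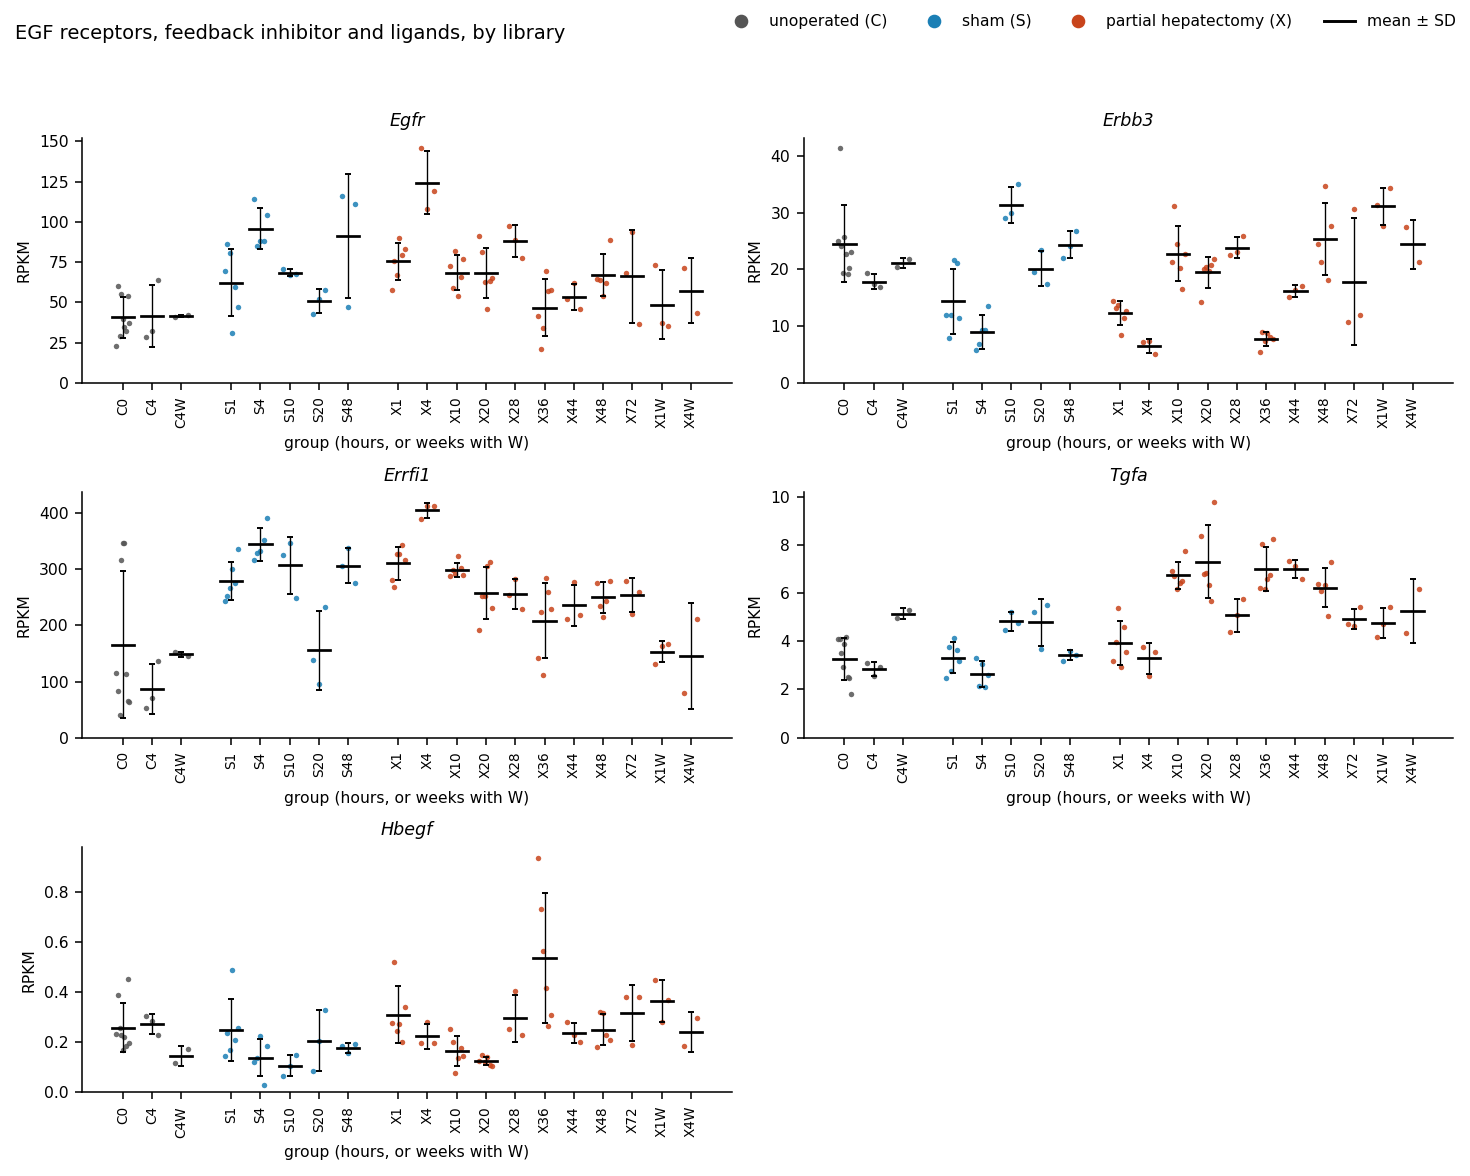
RPKM of Egfr, Erbb3, Errfi1, Tgfa and Hbegf in single livers (points) by group, with the group mean and SD, on a linear axis in each panel. Erbb3 is low at 1 and 4 h after both surgeries and again at X36 (5.42 to 9.02 RPKM), Tgfa is highest in X20, X44, X36, X10 and X48, and the 9 C0 livers of Errfi1 fall apart into 40.7 to 116 RPKM and 316 to 347 RPKM.

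Among the EGF family receptors, Egfr rose and Erbb3 fell within hours of either operation. At 4 h Egfr was 2.43-fold higher after sham surgery and 3.15-fold higher after PH than in C4, while Erbb3 was lower after both, and these calls were kept in the period fit. PH and sham livers could not be separated for either receptor at any of the 5 times.

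Egfr was 28.6, 32.4 and 63.8 RPKM in C4, 114, 85.1, 88.2, 88.0 and 104 RPKM in S4, and 146, 108 and 119 RPKM in X4. The 8 operated livers lay above the 3 unoperated ones. The differences from C4 were 1.28 (SE 0.30, adjusted p = 0.000198) in S4 and 1.66 (SE 0.33, adjusted p = 2.4e-05) in X4, and that between X4 and S4 was 0.37 (95% confidence interval −0.22 to 0.97, adjusted p = 0.478). Egfr was also called against C0 in S1, S10 and S48, and in X1, X10, X20, X28, X48 and X72. Of these, S1 (0.60, adjusted p = 0.0331) and X72 (0.66, adjusted p = 0.0372) were the least stable, and S48, with 116, 47.0 and 111 RPKM, lost its call without replicate 1. At X36 the difference was 0.16 (adjusted p = 0.542), with livers of 21.1 to 69.5 RPKM against 23.2 to 60.3 RPKM in C0.
At 48 h the PH minus sham difference of Egfr was −0.36 (95% confidence interval −0.96 to 0.24). It was called at −0.85 when libraries were scaled to the same median, and it was also called without S48 replicate 2.

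Erbb3, the kinase-impaired neuregulin receptor, ranged from 19.2 to 41.4 RPKM in C0 and had 19.3, 17.4 and 16.9 RPKM in C4. At 4 h it was 5.88, 6.94, 9.3, 9.38 and 13.5 RPKM in S4 and 7.19, 7.34 and 5.09 RPKM in X4, all below the 3 C4 livers. The differences from C4 were −1.02 (adjusted p = 0.000224) and −1.43 (adjusted p = 7.15e-06). At 1 h they were −0.81 (SE 0.17, adjusted p = 0.000362) after sham surgery and −0.95 (adjusted p = 1.2e-05) after PH against C0. By 10 h Erbb3 was at 29.1, 29.9 and 35.0 RPKM after sham surgery and at 16.6 to 31.1 RPKM after PH, and neither group was called against C0.

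A later drop in Erbb3 came at 36 h after PH, a time without sham livers. X36 had 5.42, 9.02, 7.32, 8.73, 8.1 and 7.73 RPKM, and the difference from C0 was −1.62 (SE 0.17, adjusted p = 1.69e-12), a 3.07-fold lower level. The 6 livers were all below the lowest C0 liver, and also below the 22.5, 23.0 and 25.9 RPKM of X28, the 15.1, 16.4 and 17.1 RPKM of X44 and the 18.2 to 34.7 RPKM of X48. The call held against each C0 triplicate alone (−1.90, −1.53 and −1.42) and under both scalings (−1.99 and −1.81). X36 was collected at ZT14, and no unoperated or sham group of that ZT was analysed, so the time after PH and the time of day cannot be told apart. Erbb3 was also called lower in X44 (−0.55, adjusted p = 0.0274), a call lost without C0 replicate 2 (−0.46), X44 replicate 1 or X44 replicate 2, with C0 replicates 4 to 6 or 7 to 9 alone and with no filter on low values, and in X72 (−0.58, adjusted p = 0.0214). X72 had 10.7, 30.7 and 12.0 RPKM, and its call was lost without replicate 1 (−0.31), replicate 3 (−0.39) or C0 replicate 2.

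Tgfa, which encodes TGF-alpha, had the highest level of the 3 EGF receptor ligands among the members. It was called higher after PH than after sham surgery at 20 h (1.49-fold) and at 48 h (1.76-fold). It was also called above C0 in sham livers at 10 and 20 h, but the unoperated C4W livers lay at a similar level to these sham livers.

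Tgfa ranged from 1.8 to 4.17 RPKM in C0, and the 2 C4W livers had 4.99 and 5.32 RPKM. At 10 h sham livers had 4.47, 5.23 and 4.78 RPKM and PH livers 6.16 to 7.77 RPKM. At 20 h sham livers had 5.21, 3.68 and 5.49 RPKM and PH livers 8.38, 6.8, 6.83, 6.33, 5.67 and 9.79 RPKM. At either time no PH liver reached down to the sham livers, with a narrow margin at 20 h. At 48 h sham livers had returned to 3.2, 3.61 and 3.44 RPKM, within the C0 range, and PH livers had 6.39, 6.08, 6.33, 5.07 and 7.29 RPKM.

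The PH minus sham difference of Tgfa was 0.46 (adjusted p = 0.0692) at 10 h, 0.58 (SE 0.17, adjusted p = 0.0184) at 20 h and 0.81 (SE 0.18, adjusted p = 0.000153) at 48 h. The 20-h call was lost with libraries scaled to the same median (0.49), with X20 replicates 4 to 6 alone (0.55, adjusted p = 0.0839), without S20 replicate 2 (0.41, adjusted p = 0.207) and without X20 replicate 6. At 48 h it was 0.35 (adjusted p = 0.0867) under scaling to the same median and 0.41 (adjusted p = 0.0383, short of the fold limit) under quantile normalization. Against C0, Tgfa was called in S10 (0.57) and S20 (0.54), and in the 8 PH groups from X10 to X1W, where the differences lay between 0.55 at 1 week and 1.12 at 20 h (SE 0.13, adjusted p = 5.71e-11). In the period fit the calls in S10, S20, X28, X72 and X1W were lost. That fit also called Tgfa lower in S4 than in C4 (−0.81, adjusted p = 0.00224). Without the period term the difference was −0.12, with 2.09 to 3.29 RPKM in S4 and 2.55 to 3.09 RPKM in C4.

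Hbegf, which encodes HB-EGF, was low in all groups, with 0.17 to 0.452 RPKM in C0. X36 had 0.934, 0.732, 0.564, 0.418, 0.265 and 0.31 RPKM, and was the group in which Hbegf was called (0.59, SE 0.14, adjusted p = 0.000171). The 6 livers overlapped C0, and the call was lost with a pseudocount of 1, under both scalings, with C0 replicates 1 to 3 alone and without X36 replicate 1. In X20, Hbegf was 0.104 to 0.147 RPKM, below all C0 livers, and the difference of −0.42 (adjusted p = 0.00811) did not reach the fold limit. The same held for S10 against C0 (−0.50, adjusted p = 0.014), with 0.0644, 0.106 and 0.148 RPKM, and for S4 against C4 (−0.45, adjusted p = 0.0383).

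Areg, which encodes amphiregulin, was found at single reads. None of the 9 C0 libraries had a read, 0 of 251.8 M estimated reads, which allows up to 0.0119 reads per M at 3 reads over the group. In X36 each library had reads (7, 4, 5, 3, 3 and 6), 28 in all or 0.177 reads per M (exact Poisson 95% interval 0.118 to 0.257). Set against the limit of 3 reads, that is at least 14.9-fold higher than in C0, without the counting error of X36. X1 had 14 reads over its 6 libraries, 0.0883 per M (0.0483 to 0.148), against 4 reads in S1, a ratio of 3.74 with a counting interval of 1.18 to 15.6. At 48 h there were 13 reads after PH and 1 after sham surgery, with a ratio of 8.06 and an interval of 1.21 to 343. The intervals of the ratios at 4 h (0.914 to 16.7) and 10 h (0.662 to 26.1) include 1, and at 20 h there were 5 reads after PH and 0 after sham surgery. The intervals and limits cover counting error only. With no filter on low values, limma called Areg in X36 against C0 alone (0.66, adjusted p = 2.62e-08). X48 against S48 (0.36, adjusted p = 0.0436) fell short of the fold limit only. The same held for X1, X10, X28, X44 and X48 against C0. The other comparisons did not pass on adjusted p.

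**Figure D3:**
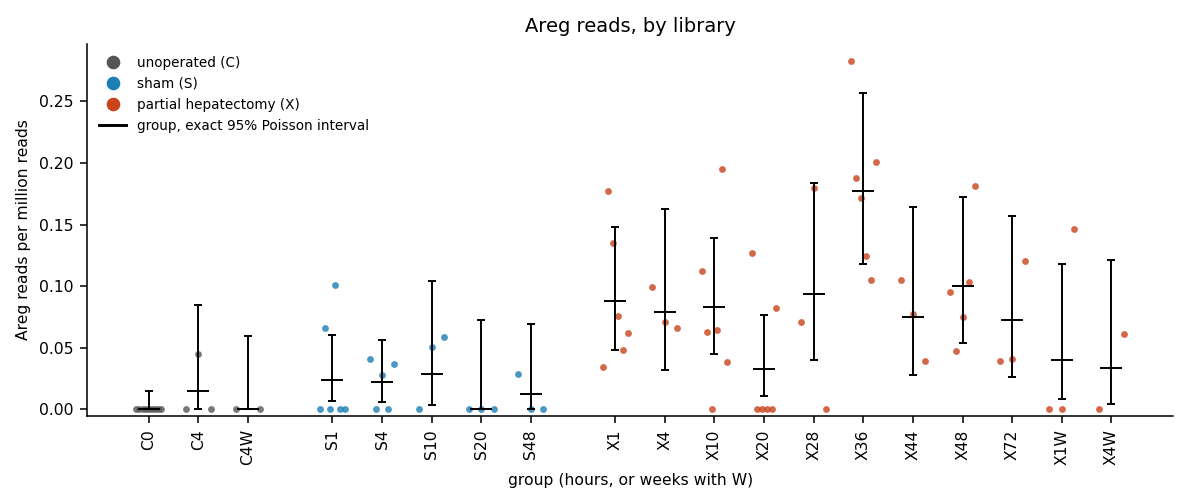
Estimated Areg reads per M in single livers (points) by group on a linear axis, with the value pooled over each group (bar) and its exact Poisson 95% interval. The pooled value of C0 is 0 and that of X36 is highest at 0.177 reads per M.

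Errfi1, the feedback inhibitor of the EGF receptor, had the highest level of the members per length of transcript. At 4 h it was 4.27-fold higher after sham surgery and 5.04-fold higher after PH than in C4, but less so in the period fit. No PH minus sham difference passed the test.

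At 4 h Errfi1 was 52.6, 71.3 and 137 RPKM in C4, 316, 329, 333, 352 and 392 RPKM in S4, and 390, 413 and 412 RPKM in X4. The operated livers did not overlap the unoperated ones, and the differences were 2.10 (SE 0.37, adjusted p = 1.9e-06) and 2.33 (SE 0.41, adjusted p = 2.04e-06). In the period fit they were 1.14 (SE 0.43, adjusted p = 0.0268) and 1.04 (SE 0.46, adjusted p = 0.0593), so that the call in X4 was lost. At 20 h S20 had 138, 96.1 and 233 RPKM and X20 191 to 313 RPKM, and the difference of 0.80 (95% confidence interval 0.09 to 1.51) had an adjusted p of 0.129, while the period fit called it (1.08, adjusted p = 0.0111). At 48 h S48 had 306, 338 and 275 RPKM and X48 215 to 280 RPKM (−0.29, adjusted p = 0.553).

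The comparisons of Errfi1 with C0 depended on which C0 livers were used. Replicates 1 to 3 had 116, 84.0 and 40.7 RPKM, replicates 4 to 6 had 316, 346 and 347 RPKM, and replicates 7 to 9 had 114, 65.2 and 63.5 RPKM. The middle triplicate thus lay at the level of operated livers. Against all 9 libraries, Errfi1 was called higher in S1, S10 and S48 and in the 8 groups X1, X10, X20, X28, X36, X44, X48 and X72, by between 0.67 in X36 and 1.31 in X1. Without C0 replicates 4 to 6, all 13 comparisons with C0 were called, by between 0.94 and 2.03, and against replicates 4 to 6 alone the direction of the 11 calls turned. The period fit lost the calls in S10 (0.67) and X36 (0.33). The part of period in the level of that triplicate was not tested. Without the period term, the group means behind the comparisons with C4 do not include these libraries, but they enter the shared estimate of spread. In the period fit these libraries also enter the period term, and with it the differences from C4.

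Across the members, no PH minus sham difference was called at 1 and 4 h, and those called later were of Hgf, Hgfac and Tgfa. Of the 9 members tested, limma called 0 at 1 h, where 0.65% of all genes tested were called, and 0 at 4 h (8.64% of all genes). At an unadjusted p below 0.05 the counts were 1 and 0. At 10 h 1 member was called (7.02% of all genes), at 20 h 3 (7.11%) and at 48 h 3 (27.2%). The calls were Hgf up at all 3 times, and Hgfac down and Tgfa up at 20 and 48 h. Of all genes, 3.4% were called higher and 3.62% lower at 10 h, 4.49% and 2.61% at 20 h, and 24.5% and 2.69% at 48 h, so that at 48 h higher levels after PH were common among all genes and lower levels were not. The median difference of the members was 0.21 at 48 h, beside 0.27 for all genes. With libraries scaled to the same median, the 48-h calls were 1 higher and 2 lower (Hgf, and Hgfac and Egfr) in place of 2 higher and 1 lower.

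**Figure D4:**
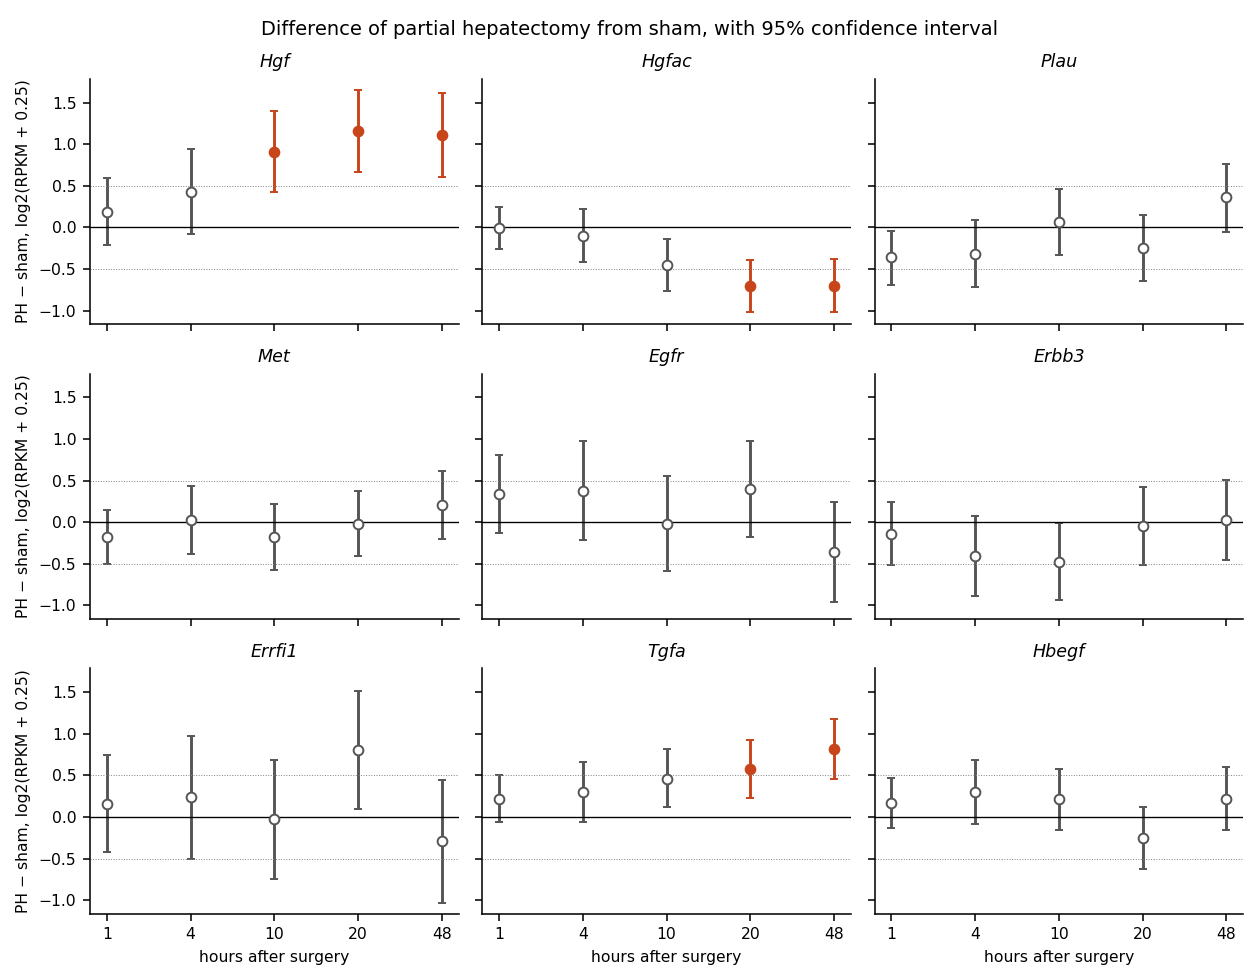
PH minus sham difference of each tested member at the 5 shared times (evenly spaced) on the log2(RPKM + 0.25) scale, with its 95% confidence interval (filled red points are called, dotted lines mark the fold limit). Hgf reaches 0.91, 1.16 and 1.11 at the last 3 times and Hgfac −0.70 at the last 2, while the intervals of Met, Egfr, Erbb3 and Errfi1 mostly include 0.

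Against unoperated livers, sham surgery gave 3 member calls at 1 h (7.77% of all genes called), 5 at 4 h (43.3%), 6 at 10 h (29.1%), 2 at 20 h (12.1%) and 2 at 48 h (8.88%). After PH there were 3 calls in X1 (13.5%), 6 in X4 (45.6%), 6 in X10 (36.4%), 6 in X20 (24.1%), 5 in X28 (24.9%) and 7 in X36 (35%). Later there were 6 in X44 (39.2%), 6 in X48 (38.1%), 6 in X72 (33.2%) and 2 in X1W (16.9%), and in X4W against C4W limma called 0 members, also at an unadjusted p below 0.05, beside 0.065% of all genes. The direction of these calls moved with scaling. In X48 against C0 they were 5 higher and 1 lower, and 1 higher and 1 lower after scaling to the same median. In X36 they were 5 higher and 2 lower, and 2 higher and 2 lower after that scaling. In X72, 4 higher and 2 lower became 1 higher and 2 lower, in X44, 4 and 2 became 2 and 3, in X20, 5 and 1 became 4 and 4, and in S10, 4 and 2 became 1 and 3. The 2 calls in S20 and the 2 in X1W were lost. The calls of Hgf from X4 to X72 and of Hgfac from X4 to X72 held under this scaling.

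**Figure D5:**
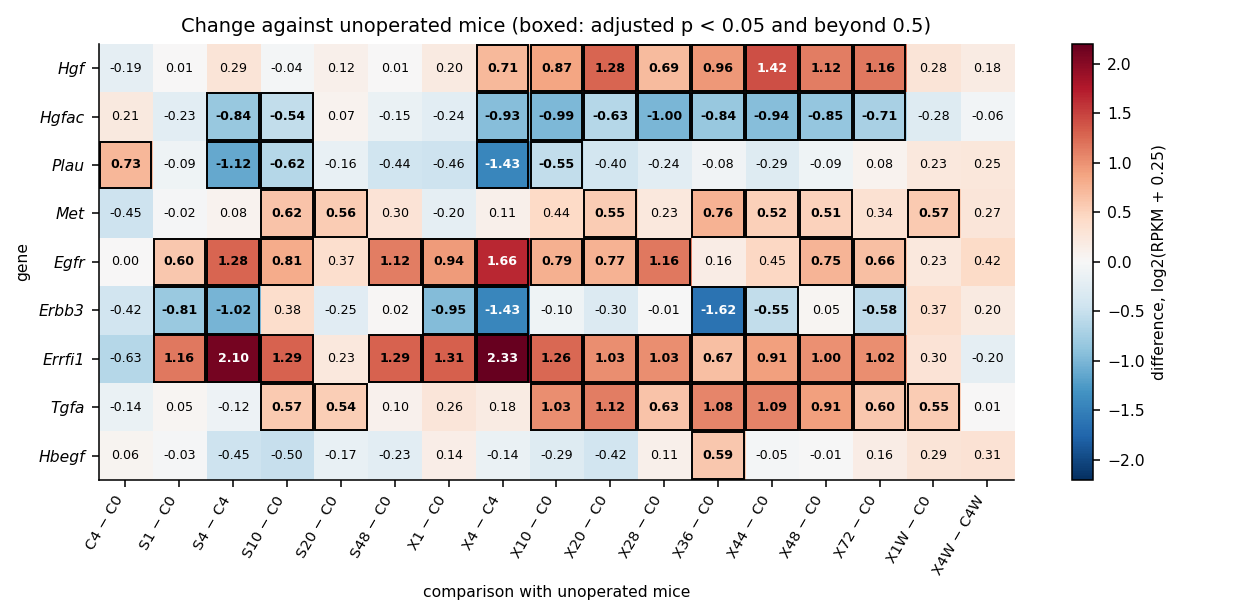
Difference of each tested member from unoperated livers on the log2(RPKM + 0.25) scale, as a heat map with 1 column per comparison (red higher, blue lower, boxes mark calls). Egfr and Errfi1 rise and Erbb3 falls in both S4 and X4, and Hgf is higher and Hgfac lower from X4 to X72.

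Another 70 genes of these pathways, listed by their known roles, were read beside the members. Of these, 63 passed the detection limit. Egf, Ereg, Epgn, Nrg2, St14 and Erbb2 did not pass it, and Hras had no row. Between PH and sham livers, 3 were higher and 0 lower at 1 h, 5 and 1 at 4 h, and 6 and 0 at 10 h. The counts were 2 and 0 at 20 h, and 21 and 1 at 48 h. Of all genes tested, 0.65% were called at 1 h, 8.64% at 4 h, 7.02% at 10 h, 7.11% at 20 h and 27.2% at 48 h. The 48-h split was 3 higher and 9 lower with libraries scaled to the same median, and 3 and 4 under quantile normalization. The medians of the list were 0.05, −0.03, 0.03, 0.12 and 0.35, and that of all genes at 48 h was 0.27.

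At 1 h the called genes were all feedback regulators of MAPK signalling. Dusp4, a MAP kinase phosphatase, was 0.706 to 1.64 RPKM in S1 and 1.86 to 6.06 RPKM in X1 (1.38, adjusted p = 1.46e-06), with no overlap. Dusp5, a nuclear ERK phosphatase, was higher by 1.06 (adjusted p = 0.0202) and the Sprouty inhibitor Spry4 by 0.85 (adjusted p = 0.023). At 4 h Dusp5 (1.44), Spred2 (0.92) and Spry4 (0.83) were higher. The Met co-receptor Nrp1 was at 30.2, 33.0 and 33.4 RPKM in X4, above the 11.8 to 21.2 RPKM of S4 (0.93, adjusted p = 0.000799). The PI3K subunit gene Pik3r1 was higher by 0.67 and the kinase gene Akt1 lower by −0.64 (adjusted p = 0.000237), at 5.65 to 7.23 RPKM in X4 and 9.53 to 12.9 RPKM in S4.

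At 10 h other ErbB ligands were higher after PH. Nrg4, a neuregulin that binds Erbb4, was 3.03 to 4.87 RPKM in S10 and 7.08 to 15.4 RPKM in X10 (1.39, adjusted p = 0.00137), both above the 0.184 to 0.763 RPKM of C0. Btc, which encodes betacellulin, was 0.341 to 0.536 RPKM in S10 and 0.928 to 1.92 RPKM in X10 (1.16, adjusted p = 2.56e-05), while C0 lay at 0.448 to 1.21 RPKM. Each of these ligands was thus without overlap between the surgeries. The urokinase receptor gene Plaur (0.77), the sheddase regulator Rhbdf1 (0.90) and the Sprouty gene Spry1 (0.64) were also called higher at 10 h. At 20 h Spry1 was again called higher (0.63).

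At 48 h, 27.2% of all genes were called and 24.5% were called higher. The calls among these genes were 3 of 13 tested HGF activation genes and 3 of 4 ErbB ligands and receptors. They were also 5 of 6 genes of sheddases, their regulators and metalloprotease inhibitors, and 7 of 22 signal transducers. Among 18 feedback genes, 3 were higher and 1 lower. Timp1, a metalloprotease inhibitor, was 0.294 to 1.16 RPKM in S48 and 1.51 to 8.01 RPKM in X48 (1.91, adjusted p = 0.00187). Nrg1, a neuregulin, was 0.0271 to 0.116 RPKM in S48 and 0.279 to 0.985 RPKM in X48 (1.18, adjusted p = 6.09e-06). In both genes every PH liver had a higher level than every sham liver. Nrg4 was higher by 1.27 and Btc by 0.64. Plaur (0.77), Plat (0.58), Rhbdf1 (0.80), Adam10 (0.63), Nras (0.90), Src (0.77), Mapk3 (0.70), Cbl (0.54) and Spred1 (0.52) were also higher. Most of the higher calls at 48 h were lost under either scaling, which left 3 higher among the pathway genes. Spry4 was lower (−0.80, adjusted p = 0.0104), at 0.364 to 0.661 RPKM after PH and 0.88 to 1.48 RPKM after sham surgery, the opposite of 1 and 4 h.

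The genes whose group means followed each member most closely were found by Pearson correlation over the 19 group means among 11561 candidate genes, a description in which the points share libraries and controls. For Hgf these were Herc1 (r = 0.927), Zdhhc21 (0.923) and Cstf2 (0.923), and for Hgfac they were Fn3k (0.952), Lrit2 (0.95) and Kifc2 (0.941). For Tgfa they were Ercc3 (0.949), Atp9a (0.945) and Ptpn21 (0.930), and for Met they were Fto (0.928), Gm13422 (0.924) and Btbd9 (0.923). Erbb3 was followed by Tmem140 (0.929), Tbc1d30 (0.875) and Ttc30b (0.870), Egfr by Adcy1 (0.902), Fosl2 (0.883) and Hip1r (0.875), and Errfi1 by Yod1 (0.932), Spin1 (0.907) and Rab3gap1 (0.896). The low-level members had weaker neighbours, namely Dmpk (0.892), Tcf21 (0.879) and Cyba (0.877) for Plau, Grhl1 (0.844), Zyg11a (0.841) and Myadm (0.841) for Areg, and Cyp3a59 (0.766), Igfbp2 (0.762) and Cth (0.753) for Hbegf. Among the members themselves, Hgf had r = −0.77 with Hgfac and 0.79 with Tgfa over the 19 group means.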

How the data were processed

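The authors removed adapters and short reads with Cutadapt and prinseq-lite, mapped strand-specific single-end reads with TopHat 2.0.13 and Bowtie2 to mm9, and counted them per Ensembl 67 gene with featureCounts, reads with several positions as fractions. The deposited values are log2 RPKM, so each library is scaled to its own total, and genes with 0 reads are listed at −14.29. Of 84 columns of values, 80 matched 1 labelled sample each. The other 4 matched none and were not used, and 7 of the 87 labelled samples (3 X4, 3 X60 and 1 X4W) were not analysed here.

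RPKM were recovered from the log values. Genes above −1.5 log2 RPKM in at least 1 library were tested (15396) with limma 3.58.1 (R 4.3.3) after addition of a pseudocount of 0.25 RPKM and log2 transformation, with 1 coefficient for each of 19 groups and a prior variance that follows the mean. Replicates are separate livers. Livers were collected in 3 periods that the replicate numbers are not tied to, and p values measure the spread between these livers. The paper states that mice were operated on 3 at a time and killed as a set. A group of 3 livers may thus be 1 session, where surgery and session cannot be told apart. The study's own count test was not run, since counts were not used here. Depth was estimated by taking the most frequent low value of RPKM times exon length (GENCODE vM1) as 1 read. Areg reads came from the same estimate, and in 1 library (X28 replicate 2) the value was not within 0.05 of a whole read. The script was tested on simulated data.

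The members and lists were chosen with earlier results of these data known. The text names the 10 members in every comparison, up to 3 called genes per pathway list with the largest difference between PH and sham livers, and the 3 genes nearest to each member. Some genes that this rule names are not reported here. Alternatives were other pseudocounts, filters and scalings, the replicate block, robust limma, triplicates alone, other controls and leaving out each library in turn (80 fits). Leaving out C0 replicates 4 to 6, or X28 replicate 2 and C0 replicate 8 together, and the fit with period as a term were chosen after seeing the data. Python 3.11.15 was used for tables and figures.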

Additional observations from a re-analysis of the deposited data

Results flagged for a closer look

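In 72 groups of 4 to 10 libraries of the members, the most extreme liver was compared with its neighbours by Dixon's test, and 3 groups held a liver that stood apart, where chance gives about 1 in 20. Plau in X10 replicate 3 was the lowest of 6 at 0.0383 RPKM, with the other 5 livers between 0.111 and 0.134 RPKM. Erbb3 in C0 replicate 2 was the highest of 9 at 41.4 RPKM, with the others between 19.2 and 25.7 RPKM. Erbb3 in X20 replicate 1 was the lowest of 6 at 14.2 RPKM, with the others between 19.8 and 21.8 RPKM.

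For 2 members the PH minus sham difference itself varied over the 5 times in limma's moderated F test, beside 41.4% of all genes tested. Hgf had an adjusted p of 0.0276, with differences of 0.19, 0.43, 0.91, 1.16 and 1.11 at the 5 shared times from 1 to 48 h. Hgfac had an adjusted p of 0.00585, with differences of −0.01, −0.10, −0.45, −0.70 and −0.70.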

How the results depend on the processing

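Of 117 tests of single members followed, 79 were calls. Of these, 43 were lost with their direction kept in at least 1 alternative, and 3 tests that were not calls were gained. Changes of direction are counted apart. The 11 calls of Errfi1 against C0 turned with C0 replicates 4 to 6 alone, to −0.28 (S1), −0.14 (S10), −0.14 (S48), −0.12 (X1), −0.17 (X10), −0.40 (X20), −0.40 (X28), −0.76 (X36), −0.52 (X44), −0.43 (X48) and −0.41 (X72). The calls at 10 h (1) became 2 under the replicate block and with X10 replicates 1 to 3 alone, and 0 with X10 replicates 4 to 6 alone. The 18 calls of sham against unoperated livers became 10 when only the compared groups were fitted and 9 with C0 replicates 4 to 6 alone. That triplicate alone left 33 of the 53 calls after PH. The call of C4 against C0 (1) became 0 with a pseudocount of 1, with the stricter filter or with only these groups, and 2 under either scaling or the replicate block. The 39 pathway calls became 22 with a pseudocount of 1. The 2 members in the F test became 1 without a filter or under either scaling, and 4 with only the compared groups. With period as a term, the call of C4 against C0 became 0 and the 2 members in the F test became 1 (Hgfac). Beyond the values given here the cause was not tested.

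Leaving out 1 library at a time gave 0 to 0 calls at 1 h and at 4 h, 0 to 2 at 10 h (0 without S10 replicate 2, 2 without X10 replicate 6), 2 to 3 at 20 h, 3 to 4 at 48 h, 16 to 20 for sham and 47 to 54 for PH against unoperated livers, 0 to 2 for C4 against C0, 30 to 41 for the pathway genes and 1 to 2 in the F test (1 without S1 replicate 4, X1 replicate 4 or X1 replicate 6). Replicate numbers did not pair the livers, since livers of the same number deviated together with r between −0.186 and 0.273, and the replicate block is given as a fit with a shared number only. Depth limits Areg, Hbegf and Plau most, where single reads or the pseudocount set the values.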
